A study of Homo sapiens with 6 samples.

Results

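The 5 genes described here encode classical cadherins and a pair of the catenins of the complex at their cytoplasmic tails. The cadherins are E-cadherin (CDH1), N-cadherin (CDH2) and P-cadherin (CDH3), and the catenins are α-catenin (CTNNA1) and p120-catenin (CTNND1). The genes were taken by their GENCODE v29 symbols from a table of transcript counts. There they hold 59 of the 98886 rows and 5 of the 18750 genes, and the annotation gives them 111 transcripts in all. The cells were HCT116, an established human colorectal cancer line grown in DMEM with fetal bovine serum. One group received an siRNA against the lncRNA AC010789.1 (si-AC010789.1, 3 libraries) and the other a negative control siRNA (siRNA-NC, 3 libraries), so that both groups had been through transfection. RNA was sequenced in paired ends on an Illumina NovaSeq. The study speaks of cells of different generations within a group, and the p-values below measure the spread between such libraries. AC010789.1 itself was not analysed here, and the labels of the groups could not be compared with its level.

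Classical cadherins join neighbouring cells through calcium-dependent binding of their extracellular domains. Inside the cell, β-catenin or plakoglobin binds the cadherin tail and carries α-catenin, which links the junction to actin, whereas p120-catenin binds close to the membrane and holds the cadherin at the surface. E-cadherin is typical of epithelia such as that of the colon, P-cadherin of basal epithelial layers, and N-cadherin of neural and mesenchymal cells. A shift from E-cadherin to N-cadherin is a classical sign of the epithelial-to-mesenchymal transition (EMT), which the study followed after AC010789.1 silencing.

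A library held between 11277222 and 13443866 counts, so that 3 counts, taken as the floor of detection, stood for 0.223 to 0.266 CPM (a library's counts scaled to a common total). Of 13 markers of colorectal epithelium, 6 had a row in the table. The other 7 had no row, in a table whose rows hold at least 3 counts in total, and the reason was not tested. The keratins KRT8 (444 to 850.5 CPM) and KRT18 (351 to 535 CPM) were abundant. EPCAM, an epithelial surface protein, lay between 3.10 and 5.59 CPM. CDH17 and LGALS4, both typical of intestinal epithelium, did not exceed 0.225 CPM, and CDH1 itself did not exceed 1.05 CPM. The summed level of the 6 markers was 986 to 1230 CPM with siRNA-NC and 802 to 1042 CPM with si-AC010789.1. Of 5 fibroblast markers, 3 had a row, namely COL1A1 (37.8 to 48.0 CPM), PDGFRB (16.4 to 19.0 CPM) and DCN (1.51 to 2.43 CPM), and their sum was 55.7 to 66.0 CPM with siRNA-NC and 61.3 to 66.9 CPM with si-AC010789.1. The 2 of 6 leukocyte markers with a row summed to 1.60 CPM at most, and the 2 of 4 endothelial ones to 2.51 CPM at most. Of the 6 colorectal markers read, CDH17 and LGALS4 were thus near the floor in all 6 libraries labelled HCT116. CDH1 and EPCAM were low but above it, and KRT8 and KRT18 were abundant. The part that the identity of the cells has in the results was not tested.

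**Figure D1:**
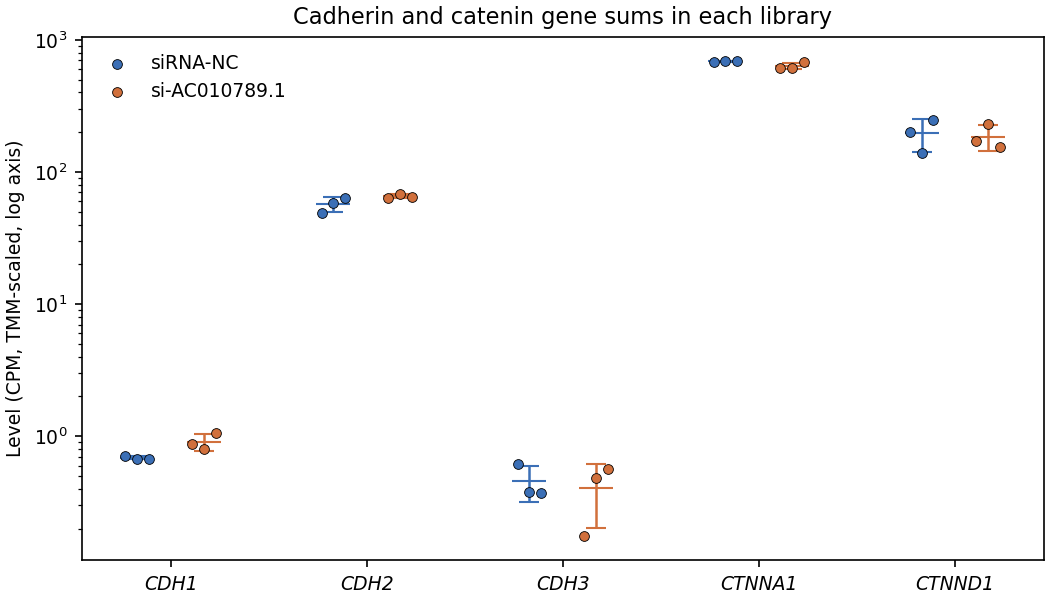
CPM (log axis) of the 5 genes in each library, with the mean and SD of the 3 siRNA-NC and the 3 si-AC010789.1 libraries as bars. CTNNA1 stood between 614 and 698 CPM and CDH2 between 49.3 and 67.9 CPM, whereas CDH1 and CDH3 stayed at or below 1.05 CPM in every library.

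Among the 3 classical cadherin genes, these libraries held mainly RNA of CDH2, the gene of N-cadherin. Per transcript length (TPM, counts divided by transcript length and scaled to a common total), the siRNA-NC means were 36.5 ± 11.7 TPM for CDH2, 0.417 ± 0.261 TPM for CDH1 and 0.179 ± 0.0564 TPM for CDH3 (SD, n = 3). Both catenins were above all 3 cadherins, CTNNA1 with 756 ± 146 TPM and CTNND1 with 76.0 ± 16.2 TPM. The order CTNNA1, CTNND1, CDH2, CDH1, CDH3 was that of all 6 libraries, and the ranges of neighbouring genes over the 6 libraries did not overlap, although those of CDH1 (0.263 to 0.718 TPM) and CDH3 (0.0683 to 0.244 TPM) nearly met. On the same scale β-catenin (CTNNB1) had 115 TPM and plakoglobin (JUP) 571 TPM in siRNA-NC.

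None of the genes that could be tested differed between si-AC010789.1 and siRNA-NC beyond the test's threshold, and CDH1 and CDH3 had too few counts for it. CDH2, CTNNA1 and CTNND1 had enough counts to be tested, and none of these 3 (0) was called at an adjusted p-value of 0.05 by the quasi-likelihood test of edgeR, adjusted after Benjamini and Hochberg, where 135 of the 13750 genes tested (0.982%) were. DESeq2 also called 0 of the 3, beside 520 of all genes (3.78%). At an unadjusted p-value of 0.05 (edgeR), 1 of the 3 passed, CTNNA1, beside 2360 of the 13750 genes tested.

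E-cadherin, the main adhesion molecule of epithelia, is encoded by CDH1 (ENSG00000039068.18, GRCh38 chromosome 16, from 68737225 to 68835548 on the plus strand). Replicates 1, 2 and 3 of siRNA-NC had 8, 9 and 9 counts of CDH1, and those of si-AC010789.1 had 10, 10 and 13. In CPM these were 0.709, 0.679 and 0.675 against 0.873, 0.799 and 1.05, so that every si-AC010789.1 library lay above every siRNA-NC library. Groups apart in one direction or the other were also found for 25.1% of the 13750 genes tested, which do not include CDH1. An exact permutation test (two-sided) gave p = 0.1, and 3 libraries against 3 cannot give less. CDH1 was under the filter on low counts and entered no main test. In the fit without that filter its log2 fold change was 0.39 with a 95% interval from −0.29 to 1.07 (adjusted p = 0.668 from edgeR), which includes 0. Only 2 of the 14 annotated CDH1 transcripts had a row, and the full-length ENST00000261769, with 16 exons and 882 codons, held 5, 9 and 9 of the siRNA-NC counts and 8, 10 and 13 of those of si-AC010789.1. In bulk RNA, a low level in all cells and a higher level in a few cells cannot be told apart.

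The study measured E-cadherin mRNA by qRT-PCR with the primer pair below, shown here because CDH1 itself had so few counts in these libraries. In HCT116 cells the study also detected E-cadherin protein by western blot and immunofluorescence. It reported more E-cadherin mRNA and protein after AC010789.1 knockdown. Both primers matched 8 annotated transcripts, all of CDH1, and gave a product of 211 nt from exon 6 to exon 8 of ENST00000261769 (chr16:68810313-68812140, introns included).
Forward primer: ggggtctgtcatggaaggtg
Reverse primer: gaaactctctcggtccagcc

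P-cadherin is encoded by CDH3 (ENSG00000062038.13, chromosome 16, from 68636189 to 68722616 on the plus strand), next to CDH1. The siRNA-NC libraries had 7, 5 and 5 counts of CDH3 and the si-AC010789.1 libraries 2, 6 and 7, all of them in 1 of its 10 annotated transcripts, ENST00000264012. The groups overlapped, si-AC010789.1 replicate 1 was under the floor of 3 counts, and the exact permutation p was 0.8. The fit without the filter gave a log2 fold change of −0.15 with a 95% interval from −1.41 to 1.11.

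N-cadherin is encoded by CDH2 (ENSG00000170558.8, chromosome 18, from 27950966 to 28177446 on the minus strand). CDH2 had 49.3, 57.9 and 64.1 CPM in the siRNA-NC libraries, against 63.4, 67.9 and 65.1 CPM in those of si-AC010789.1. The lowest 2 values were those of siRNA-NC, but siRNA-NC replicate 3 lay within the range of the other group. The log2 fold change was 0.20 (standard error 0.10, 95% interval from −0.05 to 0.44, adjusted p = 0.388 from edgeR), an interval of 0.966-fold to 1.36-fold. Without siRNA-NC replicate 1, the lowest library, the log2 fold change was 0.10.

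CDH2 has a distal and an internal start, and most of its counts were assigned to the internal one. ENST00000399380, from the internal start, held 347, 570 and 773 counts in the siRNA-NC libraries, against 553, 713 and 638 in those of si-AC010789.1. ENST00000269141, from the distal start, which encodes the full-length protein, held 209, 160 and 12 counts in the siRNA-NC libraries, against 112, 137 and 166 in those of si-AC010789.1. The short ENST00000413878, with 4 exons, held 0, 38 and 69 counts against 61, 0 and 0. The internal start thus took 75.7 ± 14.1% of the counts of CDH2 with siRNA-NC and 79.8 ± 3.88% with si-AC010789.1 (SD, n = 3), with overlapping groups (exact permutation p = 0.7). In siRNA-NC replicate 3, the full-length transcript was at 12 of 854 counts, the fewest of any library.

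The first coding exons of the ENST00000269141 and ENST00000399380 transcripts are shown because the reading frames, of 906 and 875 codons, begin in them (start codon in capitals, minus strand). ENST00000269141 has a further coding exon, not shown, before the exons that both transcripts share. The first lies at chr18:28176963-28177022 and the second at chr18:28036470-28036548.
First coding exon, distal start: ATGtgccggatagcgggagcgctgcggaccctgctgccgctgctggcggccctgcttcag
First coding exon, internal start: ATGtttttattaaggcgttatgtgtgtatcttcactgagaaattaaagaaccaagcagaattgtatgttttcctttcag

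The 60 bases before each start, from the promoter table of RefSeq (GRCh38.p14), differed in composition. The RefSeq starts, 28177130 and 28036641, are not those of the counted transcripts, since ENST00000269141 begins at 28177446 and ENST00000399380 at 28036585, so that the distal window lies inside the first exon of ENST00000269141. The GC content was 66.7% before the distal RefSeq start (chr18:28177131-28177190) and 45.0% before the internal one (chr18:28036642-28036701), beside a median of 61.7% over all 35116 windows of the table. The letters TATAAA, searched on both strands and shown in capitals, occurred 1 time before the internal start, from 32 bases upstream, and 0 times before the distal one, and 3.75% of all windows held them.
Before the distal RefSeq start: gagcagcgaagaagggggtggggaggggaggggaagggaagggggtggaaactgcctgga
Before the internal RefSeq start: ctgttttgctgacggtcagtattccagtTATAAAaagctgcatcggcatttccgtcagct

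**Figure D2:**
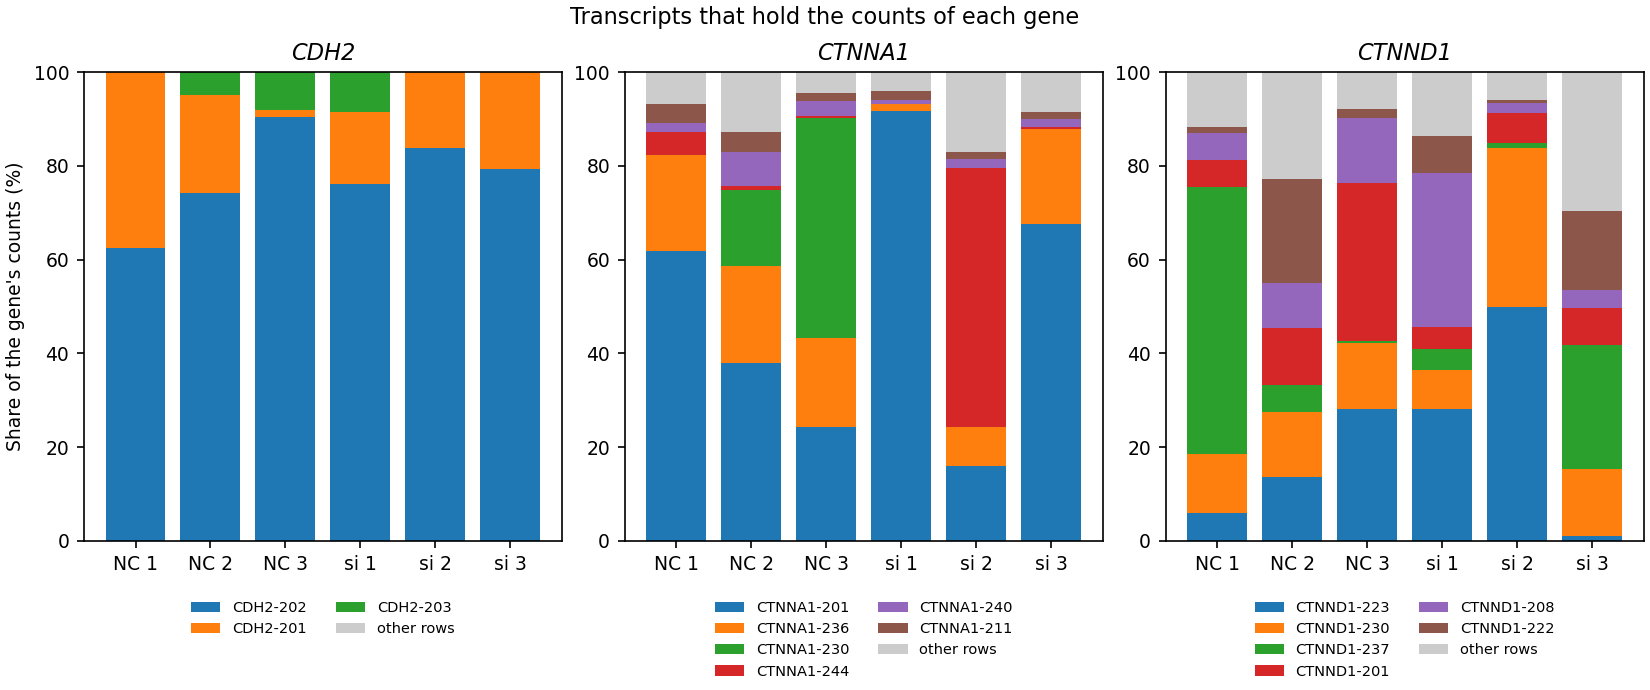
Share (%) of the counts of CDH2, CTNNA1 and CTNND1 in each library (NC, siRNA-NC; si, si-AC010789.1; replicate number) held by the most abundant transcripts, with all other rows in grey. The leading transcript was not the same in all libraries of either group for CTNNA1 and CTNND1, and ENST00000399380 (CDH2-202) led CDH2 in all 6.

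α-Catenin is encoded by CTNNA1 (ENSG00000044115.20, chromosome 5, from 138610967 to 138935034 on the plus strand). CTNNA1 had 686, 698 and 687 CPM in the siRNA-NC libraries, against 618, 614 and 676 CPM in those of si-AC010789.1. All si-AC010789.1 libraries lay below all siRNA-NC libraries, which held for 3453 of the 13750 genes in one direction or the other (25.1%), and for 1 of the 3 tested here (33.3%). The log2 fold change was −0.12 (standard error 0.05, 95% interval from −0.24 to −0.0006), with an adjusted p of 0.289 from edgeR and an exact permutation p of 0.1. The 3 siRNA-NC libraries were close to each other, with a highest value 1.02 times the lowest, where the median gene had 1.19. Without si-AC010789.1 replicate 3, the closest to the controls, the log2 fold change was −0.17, and the adjusted p in the fits without 1 library was 0.231 at least.

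Single transcripts of CTNNA1 were far less steady than their sum. The full-length ENST00000302763, with 18 exons and 906 codons, held 4790, 3515 and 2228 counts in the siRNA-NC libraries, against 6491, 1230 and 5642 in those of si-AC010789.1. ENST00000521724, which is annotated as a target of nonsense-mediated decay, held 0, 1515 and 4297 counts in the siRNA-NC libraries and was at 0 in all those of si-AC010789.1. ENST00000627109 held 377, 60 and 52 counts in the siRNA-NC libraries, against 2, 4251 and 43 in those of si-AC010789.1. ENST00000521724 was thus found in 2 of the 6 libraries, both siRNA-NC, and most counts of ENST00000627109 were in si-AC010789.1 replicate 2. ENST00000518825, named after its values were seen because it shares an extra exon with ENST00000627109, had 963 counts in si-AC010789.1 replicate 2 and 0 in the other 5 libraries. The retained-intron transcript ENST00000522792 held 1581, 1906 and 1726 counts in the siRNA-NC libraries, against 96, 638 and 1688 in those of si-AC010789.1. ENST00000523912 (147, 687 and 284 counts against 61, 144 and 145) and ENST00000518910 (324, 397 and 154 against 140, 119 and 121) are short, with 4 exons each. Among the 6 most abundant transcripts, which do not include ENST00000518825, the groups were apart for ENST00000523912 by its share of the gene, which was 4.14 ± 2.91% against 1.49 ± 0.549% (exact permutation p = 0.1, 0.955 after Benjamini-Hochberg adjustment over the 15 transcripts named by abundance).

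The 4 transcripts of CTNNA1 with 17 or more exons together held 5167, 5090 and 6577 counts in the siRNA-NC libraries, against 6493, 6444 and 5685 in those of si-AC010789.1, so that their sum varied less than any of them. Protein-coding transcripts took 51.7 ± 21.7% of the counts with siRNA-NC and 85.0 ± 11.9% with si-AC010789.1 (exact permutation p = 0.2), and the groups overlapped. Those annotated for nonsense-mediated decay took 21.9 ± 23.8% and 1.47 ± 0.184%, with siRNA-NC replicate 1 (76 of 7738 counts) below every si-AC010789.1 library. Retained-intron transcripts took 26.4 ± 5.35% and 13.5 ± 12.1%. A further internal start within the gene, from which 16 transcripts are annotated, had 0 to 5 counts per library.

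The exons that set these transcripts apart are shown because they change the predicted protein. ENST00000521724 lacks exon 3 of the full-length transcript (chr5:138783177-138783372), whose 196 bases are not a multiple of 3, and its annotated reading frame ends after 37 codons. ENST00000627109 and ENST00000518825 hold an extra exon of 71 bases before the last one (chr5:138932888-138932958), and their reading frame has 841 codons and stops at a different place in the last exon. The transcripts with this extra exon held 377, 60 and 52 counts in the siRNA-NC libraries and 2, 5214 and 43 in those of si-AC010789.1. Reads over the exon itself were not counted.
Exon absent from ENST00000521724: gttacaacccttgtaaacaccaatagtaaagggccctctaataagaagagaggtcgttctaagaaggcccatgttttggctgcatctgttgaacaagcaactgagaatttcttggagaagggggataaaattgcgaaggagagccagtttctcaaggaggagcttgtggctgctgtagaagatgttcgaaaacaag
Extra exon of ENST00000627109: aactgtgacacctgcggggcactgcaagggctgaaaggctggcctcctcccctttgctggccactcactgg

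p120-Catenin is encoded by CTNND1 (ENSG00000198561.13, chromosome 11, from 57753243 to 57819546 on the plus strand). CTNND1 had 201, 139.7 and 249 CPM in the siRNA-NC libraries, against 170.5, 231 and 154 CPM in those of si-AC010789.1. The groups overlapped over most of their range, and the highest and the lowest library were both siRNA-NC. The log2 fold change was −0.09 (standard error 0.24, 95% interval from −0.66 to 0.48, adjusted p = 0.890 from edgeR, exact permutation p = 0.9). It turned to 0.12 without siRNA-NC replicate 3 and to 0.03 without si-AC010789.1 replicate 3. The highest siRNA-NC value was 1.79 times the lowest, a ratio that 11.8% of the tested genes exceeded, and in si-AC010789.1 the ratio was 1.50, which 19.6% exceeded. The 95% interval corresponds to 0.635-fold to 1.40-fold.

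The p120 protein is made from 4 alternative start codons, which give isoforms 1 to 4, and can include the small exons A, B and C. Isoform 1, with the longest amino-terminal region, is known from mesenchymal cells and isoform 3 from epithelial cells. The start codons and the exons are shown because the counts below are grouped by them (ATG of the start codon in capitals). The start codons lie at 57791479, 57791641, 57795613 and 57801746 of chromosome 11, exon A at chr11:57814311-57814373, exon B at chr11:57815915-57816001 and exon C at chr11:57806461-57806478, and the lengths of the exons, 63, 87 and 18 bases, keep the reading frame.
Start codon 1: ATGgacgactcagaggtggagtcgaccgcc
Start codon 2: ATGgccaacggcacactcacccgccggcat
Start codon 3: ATGcaggagccggggcagattgtggagacc
Start codon 4: ATGattggtgaggaggtgccatcggatcaa
Exon A: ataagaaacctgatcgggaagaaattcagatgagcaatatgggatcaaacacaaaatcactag
Exon B: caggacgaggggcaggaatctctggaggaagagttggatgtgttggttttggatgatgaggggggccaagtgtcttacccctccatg
Exon C: atgagtggttctccagag

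Of the 38 annotated CTNND1 transcripts 29 had a row, and the 21 with at least 14 exons held 97.7 ± 0.598% of the counts with siRNA-NC and 98.1 ± 0.584% with si-AC010789.1. Transcripts with start codon 1 held 358, 942 and 1678 counts in the siRNA-NC libraries, against 956, 297 and 693 in those of si-AC010789.1. Those with start codon 3 held 571, 708 and 1519 counts against 766, 2530 and 618. Those with start codon 2 held 1289, 138 and 30 counts against 167, 26 and 504, and those with start codon 4 did not exceed 38 counts. Start codons 1 and 3 thus both had counts in every library, and which of them led changed within each group. Start codons 1 and 2 together took 60.8 ± 10.9% of the counts with siRNA-NC and 43.9 ± 28.5% with si-AC010789.1 (exact permutation p = 0.5), a difference of −16.9 percentage points that shrank to −0.501 without si-AC010789.1 replicate 2.

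Transcripts with exon A held 94.0 ± 2.98% of the counts with siRNA-NC and 91.1 ± 9.47% with si-AC010789.1. Their share was above that of transcripts with exon B or C in every library. These are counts of whole transcripts, and reads over the exons themselves were not counted. Those with exon C held 45, 541 and 77 counts in the siRNA-NC libraries and 224, 44 and 400 in those of si-AC010789.1. Those with exon B held 113, 13 and 66 counts against 5, 10 and 287. None of these classes separated the groups.

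**Figure D3:**
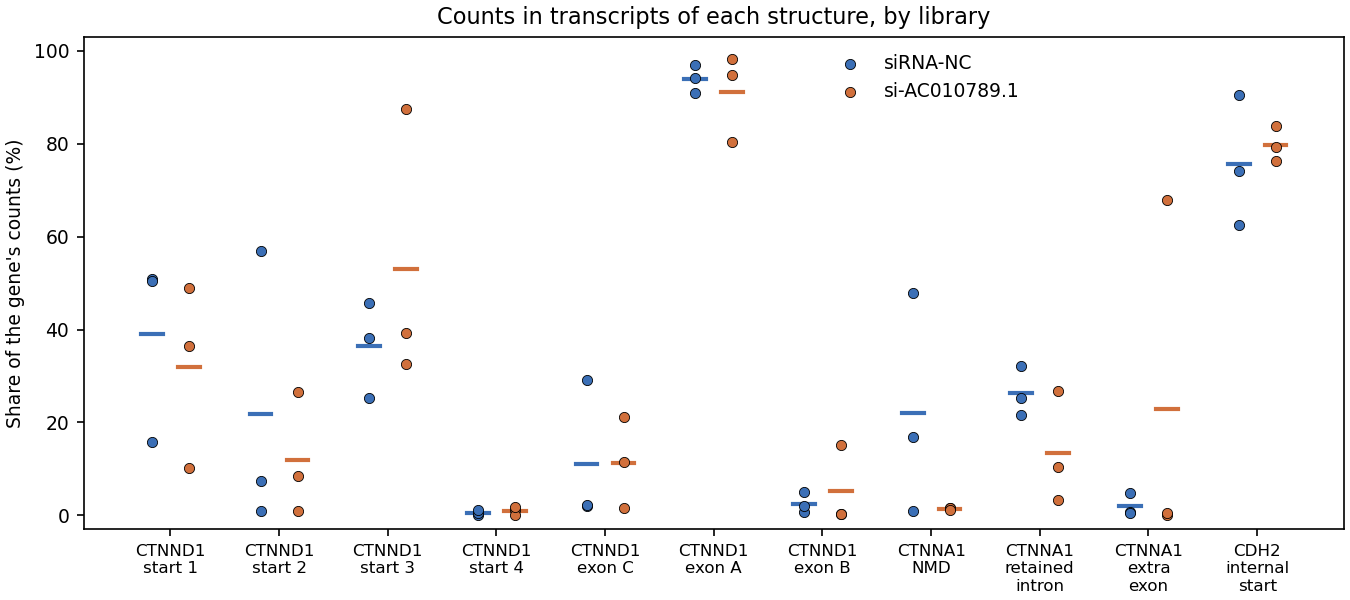
Share (%) of the counts of CTNND1, CTNNA1 or CDH2 in transcripts with a given start codon, exon, annotation type or start. Points are libraries, coloured by group, and horizontal lines are means of 3 (NMD, nonsense-mediated decay). The share of transcripts with exon A of CTNND1 was high in all 6 libraries, and for each class the points of the 2 groups overlapped.

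The leading CTNND1 transcripts varied as widely. ENST00000529986 (start codon 3) held 132, 252 and 938 counts in the siRNA-NC libraries, against 549, 1441 and 18 in those of si-AC010789.1. ENST00000534579 (start codon 2) held 1289, 107 and 14 counts against 89, 26 and 504. ENST00000358694 (start codon 1) held 132, 225 and 1116 against 90, 185 and 147. The leading transcript differed between the 3 libraries of each group. ENST00000532245 (start codon 3) held 289, 258 and 467 counts against 161, 985 and 272. ENST00000428599 held 131, 176 and 466 against 642, 66 and 73, and ENST00000529919 held 29, 414 and 60 against 157, 19 and 322, both with start codon 1.

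Tested one by one, none of the transcripts passed. Of the 59 rows 27 were tested, and 0 of these had an adjusted p-value under 0.05 with edgeR or with DESeq2, where edgeR called 6 of 44319 transcripts (0.0135%). At an unadjusted p-value of 0.05, 3 of the 27 passed, beside 2540 of the 44319, all 3 of them short or retained-intron transcripts of CTNNA1 that were lower in si-AC010789.1 (ENST00000523912, ENST00000518910 and ENST00000517534, the last named after its value was seen). Of the 25 transcripts of CDH2, CTNNA1 and CTNND1 with a mean of at least 20 counts, 22 (88.0%) differed at least 2-fold between replicates of 1 group, beside 61.8% of the 35121 such transcripts in the table, and 14 (56.0%) differed at least 10-fold, beside 23.8%. The way in which counting split reads between overlapping transcripts is not given in the sources used here, and its part in this spread was not tested.

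Other genes that overlap the 5 genes, on either strand, held at most 4 counts in a library, among them TMX2-CTNND1, a read-through gene that runs into CTNND1.

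The study also worked with miR-432-3p. The mature miRNA (RefSeq, seed bases 2 to 8 in capitals) was therefore matched against the longest annotated 3′ end of each gene, as CCATCCA or CATCCAA, in sense only. CTNND1 had 1 match in 3238 bases, at chr11:57818129-57818151, and CDH1, CDH2, CDH3 and CTNNA1 had 0, in 1187 to 2049 bases. A match was found in 17.5% of the 12317 tested genes with such an annotation.
miR-432-3p: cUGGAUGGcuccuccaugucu
CTNND1 match: aaattgccCCATCCAgacctggc

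Genes around the junction were grouped in 5 lists and read against all 13750 genes, of which 49.9% had a higher mean in si-AC010789.1 and whose log2 fold changes had a median of −0.0007. Over all genes, 0.284% were called higher and 0.698% lower.

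Of 34 partners of the adherens junction, 31 were tested, 0 were called higher and 1 lower, LMO7. The median log2 fold change was −0.08, and 11 of 31 were higher. The groups did not overlap for 16 of the 31 (51.6%, beside 25.1% of all genes), with si-AC010789.1 above in 5 and below in 11. LMO7, a LIM-domain protein that links the nectin-afadin and cadherin-catenin systems, had 430.0, 483 and 413 CPM in the siRNA-NC libraries, against 307, 322 and 325 CPM in those of si-AC010789.1. LMO7 fell by 0.47 on the log2 scale (standard error 0.07, adjusted p = 0.0401 from edgeR, 7.77e-06 from DESeq2). The call was lost in each of the 6 fits without 1 library (adjusted p from 0.0686 to 0.128) and in the fit without the filter (0.0668), while the log2 fold change stayed between −0.52 and −0.41. AL137782.1, which overlaps LMO7 on the same strand, held 34 to 241 counts beside at least 3513 of LMO7.

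The direct partners of the tail did not pass the test. CTNNB1, whose protein β-catenin binds both cadherins and α-catenin, had 169 ± 12.2 CPM with siRNA-NC and 184 ± 4.61 CPM with si-AC010789.1 (log2 fold change 0.12, adjusted p = 0.389). JUP, which encodes plakoglobin, had 858 ± 27.2 and 814 ± 48.0 CPM (−0.08, adjusted p = 0.533). AFDN, the gene of afadin, which joins nectins to actin, had 34.5 ± 2.18 and 34.1 ± 2.57 CPM (−0.02, a sign that turned with upper-quartile factors). Values are SD with n = 3 and adjusted p-values are from edgeR, here and below.

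The partners with the highest CPM were IQGAP1, a scaffold of Rac1 and Cdc42, with 1549 ± 135 and 1297 ± 70.5 CPM (a log2 fold change of −0.26, adjusted p = 0.167), and ACTN4, an actin crosslinker, with 1104 ± 15.8 and 1021 ± 19.2 CPM (−0.11 on the log2 scale, adjusted p = 0.201). The groups did not overlap in either. NECTIN4, an epithelial nectin, had the lowest log2 fold change of the list, from 3.01, 2.64 and 2.25 CPM to 0.873, 1.04 and 0.810 CPM (−1.52, standard error 0.24, adjusted p = 0.0517, with none given by DESeq2), and EVL, an actin regulator, had the highest (0.33, adjusted p = 0.336).

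Of 32 other cadherins, 20 had a row and 10 were tested, of which 3 were higher and 0 were called, and the median was −0.05 on the log2 scale. The groups did not overlap for 3 of the 10, 1 higher and 2 lower, beside 25.1% of all genes. The highest CPM were those of the large atypical cadherins FAT1, with 279 ± 9.75 and 233 ± 19.4 CPM (a log2 fold change of −0.26, adjusted p = 0.141), and CELSR2, with 173 ± 15.0 and 163 ± 6.40 CPM (−0.08, adjusted p = 0.632). The highest log2 fold change was that of CDH12 (0.33, from 8.64 ± 1.17 to 10.9 ± 0.734 CPM, adjusted p = 0.288) and the lowest that of the endothelial CDH5 (−0.40, from 2.01 ± 0.452 to 1.50 ± 0.762 CPM, adjusted p = 0.661), which moved to −0.14 without si-AC010789.1 replicate 1, to −0.23 without siRNA-NC replicate 1 and to −0.88 without si-AC010789.1 replicate 3.

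Of 19 genes of cadherin shedding, uptake and phosphorylation, all 19 were tested, 1 was called higher and 0 lower, and 11 of 19 had a higher mean (median 0.01 on the log2 scale). The groups did not overlap for 3 of the 19 (15.8%, 2 higher and 1 lower), beside 25.1% of all genes. The gene called was ADAM15, a membrane metalloprotease, with 107, 105 and 108 CPM in the siRNA-NC libraries, against 141, 147 and 133 CPM in those of si-AC010789.1. In all 3 libraries ADAM15 was above every control, and it rose by 0.40 on the log2 scale with a standard error of 0.05 (edgeR, adjusted p = 0.0361; DESeq2, 3.36e-05). The call was lost in each of the 6 fits without 1 library (adjusted p from 0.0832 to 0.121) and in the fit without the filter (0.0547), while the log2 fold change stayed between 0.37 and 0.43. ADAM10, the main sheddase of E-cadherin and N-cadherin, had 153 ± 18.5 and 154 ± 4.26 CPM (a log2 fold change of 0.01, adjusted p = 0.963). PTPRF, a receptor phosphatase at the junction, had 349 ± 20.9 and 338 ± 16.9 CPM (−0.04, adjusted p = 0.765), and NUMB, an endocytic adaptor, had the lowest log2 fold change (−0.31, adjusted p = 0.374).

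Of 14 repressors of CDH1, 12 were tested and 0 were called, 7 had a higher mean, and the median was 0.06 on the log2 scale. Non-overlapping groups were seen for 2 of the 12 (16.7%, 1 higher and 1 lower), beside 25.1% of all genes. ZEB1, an E-box binding repressor of CDH1, had 27.1, 33.4 and 23.6 CPM in the siRNA-NC libraries, against 37.9, 32.8 and 57.5 CPM in those of si-AC010789.1 (log2 fold change 0.61, standard error 0.23, adjusted p = 0.259). The groups overlapped through si-AC010789.1 replicate 2, and without si-AC010789.1 replicate 3, the highest library, the log2 fold change was 0.33. The antisense ZEB1-AS1 overlaps it with 3 to 66 counts per library. The histone deacetylases HDAC1 (178 ± 5.08 and 191 ± 13.2 CPM, log2 fold change 0.11) and HDAC2 (156 ± 4.28 and 161 ± 3.23 CPM, 0.04) had the highest CPM, and TCF4, which encodes the E-box binding factor E2-2, had the lowest log2 fold change (−0.52, from 2.89 ± 0.672 to 2.01 ± 0.0923 CPM, adjusted p = 0.321).

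Of 12 regulators of the epithelial state, 8 had a row, 6 were tested and 0 were called, and the median log2 fold change was −0.27. The groups did not overlap for 5 of the 6, 1 higher and 4 lower, beside 25.1% of all genes. KLF5, a Krüppel-like factor, had the highest CPM, with 223 ± 15.1 and 203 ± 7.50 CPM (−0.14, adjusted p = 0.321). ELF3, an epithelial ETS factor and the next in CPM, had 85.7 ± 7.73 and 65.0 ± 4.91 CPM (−0.40, adjusted p = 0.110 from edgeR and 0.0219 from DESeq2). HNF4A, a nuclear receptor of gut and liver epithelia, had the lowest log2 fold change (−0.84, from 2.18 ± 0.592 to 1.21 ± 0.233 CPM, adjusted p = 0.241). ESRP2, an epithelial splicing factor, had the highest (0.27, from 55.0 ± 3.36 to 66.5 ± 6.39 CPM, adjusted p = 0.211), and it shares exons with NFATC3 on the other strand, which had 808 to 1118 counts per library, so that its level is uncertain.

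**Figure D4:**
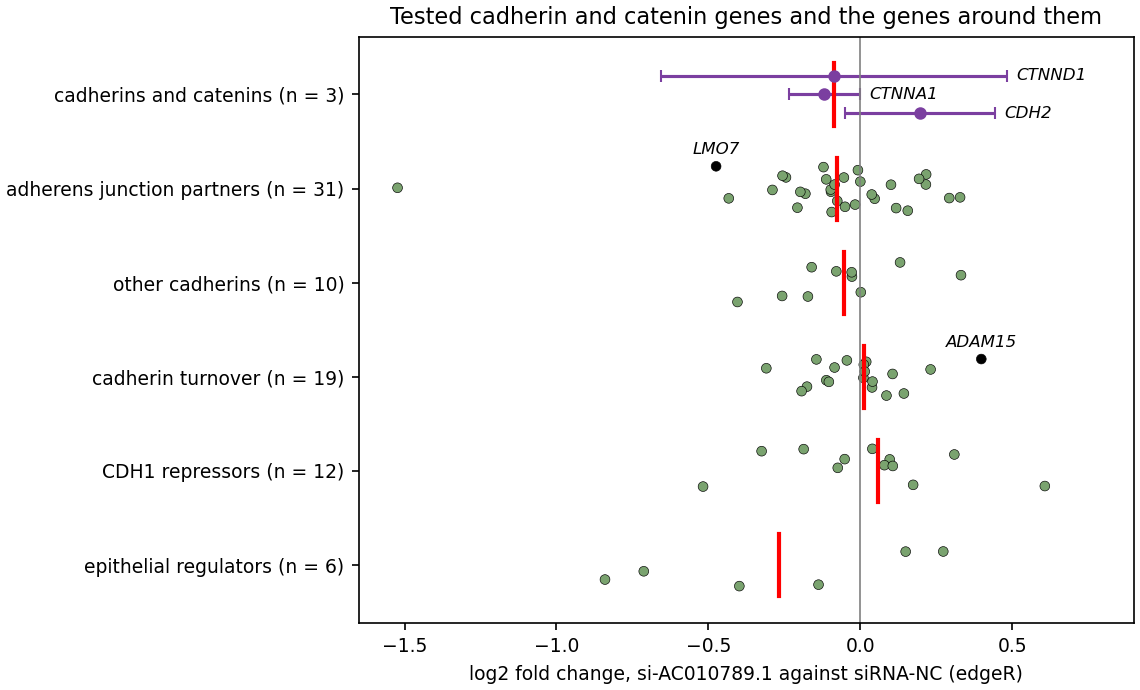
Log2 fold change (si-AC010789.1 against siRNA-NC) of the tested genes of each list. Bars are 95% intervals of CDH2, CTNNA1 and CTNND1, red lines are medians, and black points are genes with an adjusted p-value under 0.05. The intervals of CDH2 and CTNND1 span 0, and LMO7 and ADAM15 are the black points.

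Across the 6 libraries, the genes whose log2(CPM + 1) followed each tested gene most closely, among 8040 tested genes with a mean of at least 20 CPM, were EP400 (Pearson r = 0.994) and EIF1AD (0.993) for CDH2, L3MBTL2 (0.997) and PLCL2 (0.994) for CTNNA1, and ARHGAP35 (0.987) and FCHSD1 (0.969) for CTNND1. These are descriptions over 6 points that share libraries and depth. With so few points, 121 genes exceeded an r of 0.9 with CDH2, 118 with CTNNA1 and 36 with CTNND1.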

How the data were processed

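The deposited values are raw counts, 1 whole number for each Ensembl transcript in a library, from TruSeq paired-end RNA sequencing of 3 siRNA-NC and 3 si-AC010789.1 libraries of HCT116 cells. The submitters' processing notes name CASAVA 1.8, TopHat2 2.0.6, GRCh38 and mm10, and the paper names Cuffdiff, which needs alignments and was not run. The counting program and its use of strand are not given in the sources used here. Each row of the table has at least 3 counts in total.

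Transcripts were assigned to genes by GENCODE v29 (GRCh38), with 104 identifiers unmatched, and summed. About 99.9% of the counts of each library fell in matched transcripts. Genes and transcripts were tested with edgeR 4.0.16 in R 4.3.3 (filterByExpr, TMM factors, quasi-likelihood test, Benjamini-Hochberg adjustment over all features, threshold 0.05). CPM use TMM-scaled library sizes. The fitted biological coefficient of variation was 0.170 for genes and 0.698 for transcripts. Intervals use the t distribution of the fit. Permutation tests used log2(CPM + 0.5) for genes and percent shares for transcripts. TPM divided counts by transcript length. The floor of detection covers counting error only. The intervals come from the fit and include the spread between libraries of a group. The edgeR fits were tested on simulated counts.

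The 5 genes and the lists, written by hand, were chosen with earlier results of these data known. Named were the 5 genes, up to 6 of their transcripts each with a mean of at least 20 counts or an adjusted p-value under 0.05, CTNNB1, JUP, AFDN and ZEB1, of each list the genes called, the 2 with the highest CPM and those with the largest and smallest log2 fold change, and for each tested gene the 2 genes most correlated with it. Alternatives were DESeq2 1.42.0, upper-quartile factors, no filter, a mean of at least 1 CPM, the replicate number as a block, and leaving out each library. The labels do not say whether replicate numbers pair the libraries. Deviations of same-numbered libraries correlated by 0.0896, 0.0028 and 0.0003, and those of other pairs by −0.0771 to 0.0789. Such deviations, from means of 3 libraries and with counting error in them, cannot decide whether the libraries were paired.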

Additional observations from a re-analysis of the deposited data

How the results depend on the processing

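No alternative called any of the 5 genes or their transcripts among those it tested. CDH1 and CDH3 were under the filter of the main fit, as were 32 of the 59 transcripts. Of the 33 alternative values for CDH2, CTNNA1 and CTNND1, 31 kept the direction, and CTNND1 turned when the third library of either group was left out (range over the 6 fits without 1 library −0.28 to 0.12). The numbers of genes called over the whole table were 520 with DESeq2, 132 with upper-quartile factors, 69 without the filter, 133 at a mean of at least 1 CPM and 12 to 37 without 1 library, beside 135. Of the transcripts, DESeq2 called 675, the fit without the filter 0 and the fits without 1 library 0 to 6, beside 6. The replicate block called 0 genes (2163 at an unadjusted p under 0.05) and 0 transcripts, and same-numbered libraries were not tied to each other by the labels.

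Called genes among the junction partners (LMO7) and the turnover genes (ADAM15) went from 1 to 0 without the filter, with the replicate block, and in every fit without 1 library (range 0 to 0). DESeq2 called 1 repressor, TCF3 (named after its value was seen), and 1 epithelial regulator, ELF3, and leaving out 1 library called 0 to 1 epithelial regulators (KLF4, named after its value was seen, without si-AC010789.1 replicate 1). The mean share of the internal start of CDH2 was 75.7% with siRNA-NC and 79.8% with si-AC010789.1. With 1 library left out, the difference (si-AC010789.1 minus siRNA-NC) lay between −2.56 and 11.5 percentage points. Its sign turned without siRNA-NC replicate 1.

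Log2 fold changes that turned in a fit without 1 library ranged from −0.0687 to 0.11 for ADAM10, −0.0778 to 0.0219 for AFDN, −0.0871 to 0.000998 for PTPRF, −0.43 to 0.79 for ENST00000269141, −8.09 to 0.27 for ENST00000413878, −0.0493 to 0.83 for ENST00000302763, −2.92 to 4.74 for ENST00000627109, −0.46 to 1.82 for ENST00000529986, −0.58 to 0.90 for ENST00000532245, −3.06 to 1.86 for ENST00000534579, −1.85 to 0.84 for ENST00000428599 and −0.77 to 1.95 for ENST00000529919. AFDN also turned with upper-quartile factors (0.000723), and ENST00000627109 (−0.17) and ENST00000428599 (−0.72) with the replicate block. Among the genes not called whose log2 fold change was over 0.1 in size, leaving out 1 library also moved the value by over 1.5 times for EVL (to 0.18), NUMB (to −0.48 or −0.15), TCF4 (to −0.32), CTNNB1 (to 0.18), HDAC1 (to 0.16 or 0.07) and KLF5 (to −0.08), beside CDH2, CDH5 and ZEB1. The causes were not tested. Depth limits CDH1 and CDH3, at 2 to 13 counts per library.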
